A study of Caenorhabditis elegans with 2 samples.

Results

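The genes described here encode the subunits of the condensin complexes of Caenorhabditis elegans: mix-1, smc-4, dpy-27, dpy-26, dpy-28, capg-1, hcp-6, capg-2 and kle-2. They were chosen by name, as the known subunits of condensin I, condensin II and the dosage compensation condensin. All 9 were found among the 19973 nuclear protein-coding genes of the annotation. For each gene, every peak whose interval overlapped the gene or the 1000 bp on either side of it was collected, with its signal, its rank in its list and its place in the gene. The peaks come from chromatin immunoprecipitation followed by sequencing (ChIP-seq) of REC-8, a subunit of meiotic cohesin. The animals were whole hermaphrodites of the transgenic strain YL581, with GFP and FLAG fused to the C-terminus of REC-8, taken as young adults 50 hours after synchronization as starved first-stage larvae. Chromatin was sonicated and precipitated with antibody to GFP, per the labels, although their antibody field names rec-8 itself. There are 2 biological replicates of 1 group, each with its own protocol document. No untagged or untreated animals were analysed here, and the control library that the labels name was not analysed here, so no conditions could be compared and no test was made. Whole animals mix germ line and somatic nuclei, and the lists do not say which nuclei gave a peak.

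Condensins are rings of a pair of SMC ATPases closed by a kleisin, with HEAT-repeat subunits attached to the kleisin, and they compact and separate chromosomes in mitosis and meiosis. In C. elegans the dosage compensation condensin is a variant of condensin I in which DPY-27 stands in place of SMC-4. It binds both X chromosomes of hermaphrodites and lowers transcription from them. REC-8 is the kleisin of a different SMC complex, cohesin, which holds sister chromatids together during meiosis. The peaks below therefore concern where REC-8-GFP was enriched at the genes that encode condensins, not where condensin proteins bind.

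The authors' lists held 10019 peaks for the pooled replicates, 17532 for replicate 1 and 14069 for replicate 2. A thresholded list held 739 peaks that passed the authors' limit on the irreproducible discovery rate, a measure of how well peak ranks repeat, and these are the 739 strongest pooled peaks. Signal is the peak caller's own value for a peak. It was not scaled between lists, so it is compared only within a list, through the rank (rank 1 is the strongest). The weakest signal listed was 39.9 in the pooled list, 19.9 in replicate 1 and 20.0 in replicate 2, and the median pooled signal was 48.5. Read counts were not analysed here, so the depth behind each peak is unknown, and a gene without a peak cannot be read as a gene without REC-8.

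Most of the subunit genes had a peak, but few had a strong one. In the pooled list 8 of the 9 had a peak within 1000 bp, the exception being dpy-26, against 43.4% of all protein-coding genes. The windows of the subunit genes were 5786 to 19179 bp wide, and among the 4466 genes with windows in that range 60.6% had a pooled peak. All 9 had a peak in replicate 1, against 60.7% of all genes. In replicate 2, 8 of the 9 did, all but kle-2, against 52.9%. A peak in each of the replicate lists, not always at the same place, was found for 8 of the 9, against 40.9% of all genes.

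In the pooled list, strong peaks were limited to a pair of genes. Of the 9, mix-1 and hcp-6 had a thresholded peak, against 5.08% of all genes and 7.17% of genes with windows of the same range of widths. Only mix-1 had a peak among the 739 strongest of each replicate, which 3.38% of all genes had. Best pooled ranks ranged widely, with 43 at mix-1, 688 at hcp-6, 2010 at smc-4, 2076 at capg-1, 5106 at capg-2, 5897 at kle-2, 6540 at dpy-28 and 9144 at dpy-27. The median best rank of the 8 subunit genes with a peak was 3591, close to the 3753 of all genes with a peak. With 1 value per list and lists not scaled to each other, no error can be attached to a rank. The ranks in the replicate lists are given with each gene. A gene's best peak can be a different one in each list, as at hcp-6, capg-1 and capg-2, and the lists differ in length.

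**Figure D1:**
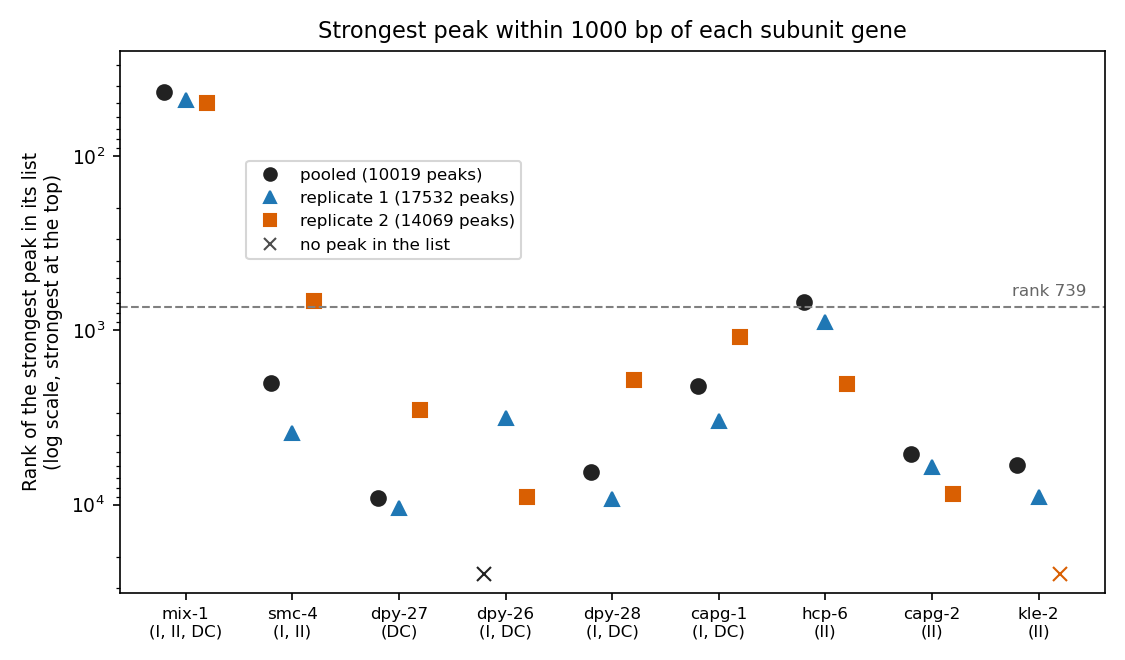
Rank of the strongest peak within 1000 bp of each subunit gene (log scale, strongest at the top) in the pooled list and the lists of replicate 1 and replicate 2; crosses mark a list without a peak, the dashed line rank 739. The 3 marks of mix-1 lie close together between ranks 43 and 50, while those of the other genes lie apart. dpy-26 and kle-2 each lack a peak in 1 list. The marks of a gene can stand for different peaks, and the lists differ in length.

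mix-1 (WBGene00003367, chromosome II, 10824246 to 10841424, plus strand) encodes the SMC ATPase that all these complexes share. Its strongest peak had a signal of 254.1 in the pooled list, 122.2 in replicate 1 and 127.5 in replicate 2, at ranks 43, 48 and 50. The summits of the 3 lists lay within 2 bp of each other, and the ranks were close in all of them. Only 59 of all protein-coding genes had a stronger pooled peak in their window. The peak lay from 10840080 to 10840509 in intron 13 of the 15-exon gene, 1129 bp before the gene's end, and its summit was 22 bp before the snoRNA gene M106.6 (75 bp, same strand), which sits wholly within that intron. Of 346 snoRNA genes, which encode RNAs that guide chemical modification of other RNAs, 123 (35.5%) had a pooled summit within 250 bp, and 24 had a stronger one than M106.6. Whether the peak belongs to mix-1 or to M106.6 cannot be told apart in these lists. With all peaks within 250 bp of a short RNA gene (tRNA, snoRNA, snRNA or rRNA) left out, the best pooled rank of mix-1 was 651.

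The intron that holds this peak is shown whole, because the sequence between the upstream exon and the snoRNA gene has letters like those inside tRNA genes (chrII:10840243-10840466, WBcel235, plus strand, 5′ to 3′, from RefSeq). Capitals mark, in order, a stretch as in box A, a box B core and the snoRNA gene. Boxes A and B are the internal promoter elements of tRNA genes, bound by the factor TFIIIC that recruits RNA polymerase III.
mix-1 intron: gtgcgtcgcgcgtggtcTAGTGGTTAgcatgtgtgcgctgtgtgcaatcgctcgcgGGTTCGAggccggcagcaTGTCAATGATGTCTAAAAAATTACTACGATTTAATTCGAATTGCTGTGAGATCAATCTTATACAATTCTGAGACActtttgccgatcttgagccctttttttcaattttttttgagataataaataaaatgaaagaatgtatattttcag
The box A stretch TAGTGGTTA (10840260 to 10840268) began 35 bp before the pooled summit, and the box B core GGTTCGA (10840299 to 10840305) began 4 bp after it, with 11 bases between the core and the snoRNA gene. These letters were picked after this intron had been read. The box B core occurred on the coding strand of 64.5% of 612 tRNA genes and the box A stretch of 14.5%, but in the 100 bases before the 346 snoRNA genes the shares were 3.47% and 0.578%. On either strand, 200 bases centred on the summit held the box B core at 1 of the 22 pooled peaks of the subunit genes (4.55%), at 220 of 733 nuclear thresholded peaks and at 539 of 10013 nuclear pooled peaks (5.38%). The box A stretch stood at 1 of the 22 as well, at 51 of the 733 (6.96%) and at 81 of the 10013 (0.809%). For both motifs the 1 of the 22 is this mix-1 intron peak, from which the letters were picked. That count was thus fixed by the choice of letters and is no result about the subunit genes. A match in letters is a description and says nothing of whether the factor binds there.

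mix-1 had a further thresholded peak at its start. It had a signal of 98.0 in the pooled list (rank 651), 44.5 in replicate 1 (rank 1063) and 57.1 in replicate 2 (rank 499), and its pooled summit lay in the 5′ UTR, 54 bp after the annotated start. Replicate 1 thus put this peak outside its 739 strongest, and replicate 2 inside. The gene R06F6.12 begins on the opposite strand 219 bp from the summit, so the peak covers the space between both starts. That space is printed from the left edge of the peak to the base before mix-1 (chrII:10824085-10824245, WBcel235, plus strand, 5′ to 3′, from RefSeq), because this was the strongest pooled start peak among the subunit genes; the stretch holds 29.8% G and C.
mix-1 upstream: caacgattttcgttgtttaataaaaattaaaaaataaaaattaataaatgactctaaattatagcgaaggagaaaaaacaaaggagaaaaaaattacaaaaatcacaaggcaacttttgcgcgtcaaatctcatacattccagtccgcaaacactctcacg
A weaker pooled peak overlapped this one, with its summit in intron 1 (signal 61.5, rank 2170). Its counterpart had a signal of 20.9 (rank 15321) in replicate 1, close to the lowest in that list, and 32.1 (rank 2724) in replicate 2. Near the other end of the gene, a pooled peak had its summit in the 3′ UTR, 16 bp before the annotated end (signal 70.3, rank 1458). There replicate 1 had a signal of 39.5 (rank 1551) with its summit 87 bp past the end, and replicate 2 had 30.6 (rank 3220) with its summit 19 bp before it. The peak overlaps the end of M106.8, a gene that runs toward mix-1 on the opposite strand. A pooled peak in exon 7 (signal 53.1, rank 3587) had a counterpart in replicate 2 (39.3, rank 1325) and none in replicate 1.

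**Figure D2:**
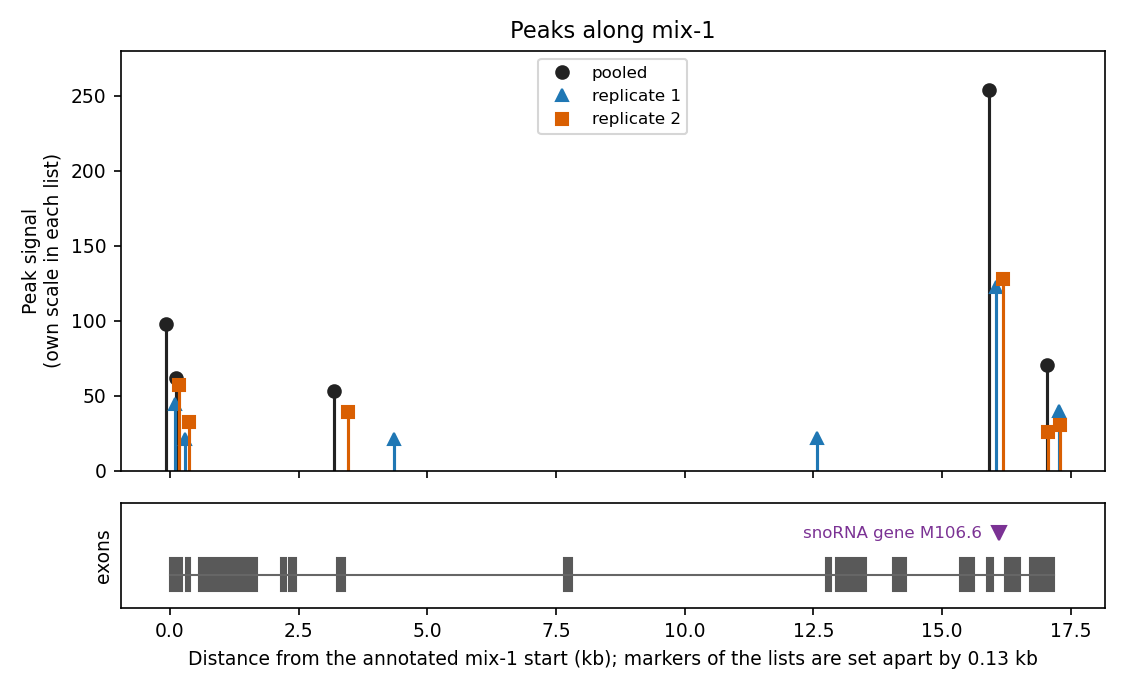
Signal of every peak along mix-1 in the pooled list and in each replicate (upper panel; each list on its own scale, markers of the lists set slightly apart), with the exons and the snoRNA gene M106.6 below; the horizontal axis is the distance from the annotated start in kb. The tallest mark in every list stands at the snoRNA gene in intron 13, at 254.1, 122.2 and 127.5, and lower ones stand at both ends of the gene.

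smc-4 (WBGene00004874, chromosome III, 4587501 to 4593124, plus strand) encodes the SMC partner of MIX-1 in condensin I and condensin II. Its strongest pooled peak (signal 63.1, rank 2010) lay 745 bp past its end, where replicate 1 had a signal of 31.1 (rank 3878) and replicate 2 one of 49.2 (rank 682). This summit lies inside apc-11, 555 bp from that gene's start and thus far nearer to it than to the start of smc-4. The peak on the start side had a signal of 52.0 (rank 3895) in the pooled list and 30.5 (rank 4179) in replicate 1, with the same summit in both, and was not listed in replicate 2. Its summit was 164 bp before the start of smc-4 and 7 bp from the start of F35G12.7, which runs the other way. The bases between both starts are shown because they hold letters of an E2F site, in capitals (read on the minus strand), 127 bases before smc-4 (chrIII:4587331-4587500, WBcel235, plus strand, 5′ to 3′, from RefSeq).
smc-4 upstream: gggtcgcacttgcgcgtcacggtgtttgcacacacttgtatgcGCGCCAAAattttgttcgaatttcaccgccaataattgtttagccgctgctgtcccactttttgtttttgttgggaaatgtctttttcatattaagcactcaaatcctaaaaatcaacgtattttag
E2F factors bind the promoters of many cell cycle genes. The letters TTTCGCGC or TTTGGCGC, on either strand and from 250 bases before to 50 bases after the start, were found in 3 of the 9 subunit genes and in 2.03% of all 19973 genes. Besides smc-4 these were mix-1, 25 bases after its start, and capg-2, 187 bases before its start. Of these, mix-1 and smc-4 had a pooled summit within 500 bp of the start, and capg-2 had none. The match before smc-4 lies nearer to the start of F35G12.7 than to that of smc-4. These letters were chosen after the data had been seen. A match in letters does not tell whether an E2F factor binds there, and a link to the peaks was not tested. The letters GAGAGA, a repeat that GAGA-type factors bind in other animals such as Drosophila, stood in the same window of 2 of the 9, dpy-26 and dpy-28, against 21.8% of all genes.

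dpy-27 (WBGene00001086, chromosome III, 3813018 to 3819679, minus strand), the SMC subunit found in the dosage compensation condensin alone, had the weakest best peak of the 8 genes with one. Its pooled peaks had signals of 41.0 (rank 9144) and 40.0 (rank 9960), close to the lowest signal in the list, and lay in coding exons 8 and 10. Replicate 2 had peaks at both places, with signals of 27.9 (rank 4615) and 31.6 (rank 2858), and replicate 1 had neither. The number of peaks differed more between the replicates than at any other subunit gene, with 2 in replicate 1 (best signal 23.7, rank 10400) and 7 in replicate 2 (best signal 31.6). The replicate 1 peak near the start, 13 bp upstream, had no counterpart in either of the other lists.

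Each of the kleisin genes lacked a peak in 1 of the lists. dpy-26 (WBGene00001085, chromosome IV, 12445801 to 12451335, minus strand) encodes the kleisin of condensin I and the dosage compensation condensin and had no pooled peak. Its single peak in replicate 1 (signal 32.7, rank 3176) lay in intron 3, and its single peak in replicate 2 (23.1, rank 9099) lay 572 bp upstream, so the gene counts as having a peak in each replicate although the places differ. kle-2 (WBGene00016202, chromosome III, 7941717 to 7945593, plus strand) encodes the kleisin of condensin II. Its pooled peaks, with signals of 46.4 (rank 5897) and 40.5 (rank 9516), had summits 598 and 279 bp past its end, inside the gene gsto-1 on the opposite strand. Replicate 1 had 1 peak there (24.8, rank 9007) and replicate 2 had none. Within the body of kle-2 no list had a summit.

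dpy-28 (WBGene00001087, chromosome III, 10763131 to 10777076, plus strand) encodes a HEAT-repeat subunit of condensin I and the dosage compensation condensin and is, after mix-1, the longest of these genes, with 13946 bp. It had 3 weak pooled peaks. The strongest (signal 45.1, rank 6540) had its summit 350 bp past the gene's end, inside the ncRNA gene Y39A1B.5, and replicate 2 listed it at 35.2 (rank 1928) while replicate 1 did not. The others lay in intron 1 (signal 40.8, rank 9316, with 24.6 in replicate 1 and none in replicate 2) and in intron 14 (40.9, rank 9291, with 21.9 in replicate 2 and none in replicate 1). No pooled peak of dpy-28 was thus listed in both replicates. The first 300 bases of the strongest peak are printed because its summit falls inside a short non-coding gene, which is in capitals (chrIII:10777211-10777510, WBcel235, plus strand, 5′ to 3′, from RefSeq; Y39A1B.5 is on the minus strand, so its own sequence is the reverse complement).
dpy-28 downstream: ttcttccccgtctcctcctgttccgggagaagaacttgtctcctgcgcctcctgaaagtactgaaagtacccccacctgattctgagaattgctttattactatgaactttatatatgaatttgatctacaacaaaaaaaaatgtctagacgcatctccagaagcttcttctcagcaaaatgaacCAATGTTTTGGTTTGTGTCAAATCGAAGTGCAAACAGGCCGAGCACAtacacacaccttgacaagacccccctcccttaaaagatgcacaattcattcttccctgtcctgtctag
The snoRNA gene in mix-1 and the ncRNA gene beside dpy-28 belong to different classes in the annotation, and their peaks differ in rank by a wide margin, 43 and 6540 in the pooled list.

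capg-1 (WBGene00009254, chromosome I, 7634492 to 7639785, minus strand) encodes the other HEAT-repeat subunit of condensin I and the dosage compensation condensin. With 4 pooled peaks it had the densest set, 5.48 per 10 kb of window. The strongest (signal 62.4, rank 2076) lay 332 bp past its end, toward the opposite-strand gene lrp-1, and the replicates ranked it very differently, at rank 13337 in replicate 1 (signal 21.9) but at rank 1090 in replicate 2 (signal 41.8). The replicate 1 list instead had its best peak in coding exon 10 (32.4, rank 3308), which the pooled list gave at 44.8 (rank 6703) and replicate 2 did not list. A pooled peak 55 bp upstream of the start (44.6, rank 6844) was matched in replicate 2 at 20.1 (rank 13988 of 14069), close to the end of that list, and not in replicate 1. The fourth lay in coding exon 5 (40.6, rank 9509), with weak peaks in each replicate.

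hcp-6 (WBGene00001833, chromosome I, 5165148 to 5171313, plus strand) encodes a HEAT-repeat subunit of condensin II and is named as a protein of the holocentric chromosomes of worms. It had a pooled peak at each end, and both were found in all 3 lists. The start peak had a signal of 95.7 (rank 688) in the pooled list, 47.2 (rank 894) in replicate 1 and 29.8 (rank 3576) in replicate 2, with summits within 1 bp of each other, 100 bp before the start of hcp-6 and 164 bp from that of the divergent gene let-630. Although thresholded, this peak was among the 739 strongest of neither replicate. The end peak had a signal of 73.5 (rank 1301) in the pooled list, 40.2 (rank 1442) in replicate 1 and 34.7 (rank 2029) in replicate 2. Its pooled summit lay 2 bp past the annotated end, over the end of the convergent gene spd-5.

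capg-2 (WBGene00010093, chromosome V, 12271873 to 12275658, plus strand) encodes the remaining HEAT-repeat subunit of condensin II. Its best pooled peak (signal 48.2, rank 5106) lay 121 bp past its end, inside the convergent gene bnc-1, and was listed at 26.7 (rank 6891) in replicate 1 and 23.4 (rank 8681) in replicate 2. A second, 841 bp past the end (44.9, rank 6672), overlapped no peak of either replicate, the only one of the 22 pooled peaks of which this was so. Replicate 1 alone had peaks in coding exon 2, with signals of 27.6 (rank 6081) and 25.2 (rank 8459).

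More of the subunit genes had a pooled summit near the 3′ end than near the start, a difference of 2 genes that was not tested. Within 500 bp of the annotated end, 6 of the 9 genes had a pooled summit (mix-1, dpy-28, capg-1, hcp-6, capg-2 and kle-2), against 17.4% of all protein-coding genes. In both replicate lists at once, 4 of the 9 had a summit there (mix-1, capg-1, hcp-6 and capg-2), against 11.8%. Within 500 bp of the start, 4 of the 9 had one (mix-1, smc-4, capg-1 and hcp-6), against 14.4%. The distance and these counts were chosen after the peaks had been seen.

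The arrangement of neighbouring genes moved with these counts. A convergent neighbour, that is a protein-coding gene on the opposite strand ending within 500 bp of the gene's own end, was present at 5 of the 9 genes (mix-1, capg-1, hcp-6, capg-2 and kle-2). All 5 had a pooled summit within 500 bp of their end, against 24.8% of the 5750 genes with such a neighbour. Within 250 bp 3 of the 5 did, against 15.9%, and within 1000 bp all 5, against 33.7%. Among the stronger peaks of the pooled list (ranks up to the middle) 3 did, against 16.3%. In the replicate 1 list 5 did, against 32.4%, and in the replicate 2 list 4, against 28.5%. Of the 4 subunit genes without a convergent neighbour, 1 had a pooled summit within 500 bp of its end (dpy-28), against 14.4% of all genes without one. At the starts, 4 of the 9 had a divergent neighbour starting within 500 bp (mix-1, smc-4, hcp-6 and capg-2), and 3 of these, all but capg-2, had a pooled summit there, against 23.9% of the 1961 genes with such a neighbour. Of the 5 without a divergent neighbour, 1 had a pooled summit there (capg-1), against 13.4% of all genes without one. A summit between converging or diverging genes lies near both, and which of them it goes with cannot be told apart here. The part of the arrangement in the counts was not tested.

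**Figure D3:**
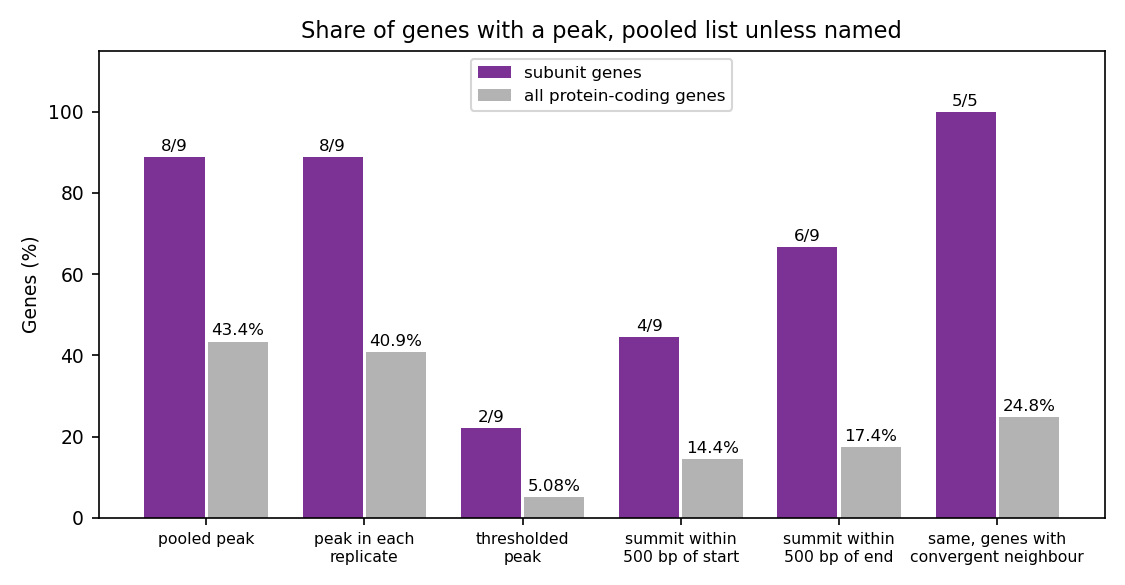
Share of the 9 subunit genes (left bar of each pair, with counts) and of all protein-coding genes (right bar, in percent) that had a pooled peak, a peak in each replicate, a thresholded peak, or a pooled summit within 500 bp of the start or the end; the last pair covers the genes with a convergent neighbour. The bars of the subunit genes are the taller in each pair, with 8 of 9 against 43.4% for a pooled peak and 5 of 5 against 24.8% at ends with a convergent neighbour, but each rests on 9 or fewer genes. The right bars are not matched for window width: among genes with windows as wide, 60.6% had a pooled peak and 7.17% a thresholded one.

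Over the pooled peaks, the share near gene ends was not unusual. Of the 22 pooled peaks in the windows of the subunit genes, 6 (27.3%) lay within 500 bp of an end. Over the windows of all protein-coding genes the share was nearly the same, 3756 of 13900. A peak in the windows of several genes was counted there once for each, so 13900 exceeds the 10019 pooled peaks. Near a start lay 5 (22.7%), against 21.6%, elsewhere in the gene body 8 (36.4%), against 28.7%, and in the outer flanks 3 (13.6%), against 22.7%. The places of the pooled peaks were thus divided in shares close to those of all genes at the starts and ends. The replicate lists were less close. In replicate 1, 17.9% lay near an end, against 23.6%, and 17.9% near a start, against 19.3%. In replicate 2, 25.9% lay near an end, against 24.3%, and 14.8% near a start, against 20.4%. By annotation 8 of the 22 pooled summits were downstream of the gene, 5 in coding exons, 4 in introns, 3 upstream, 1 in a 5′ UTR and 1 in a 3′ UTR. The 200 bases at these pooled summits had a median G and C content of 38.0% (25.5 to 47.0, n = 22), against 39% at the 10013 nuclear pooled summits. The highest, 47.0%, was found both at the snoRNA peak of mix-1 and at a weak coding exon peak of dpy-27.

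**Figure D4:**
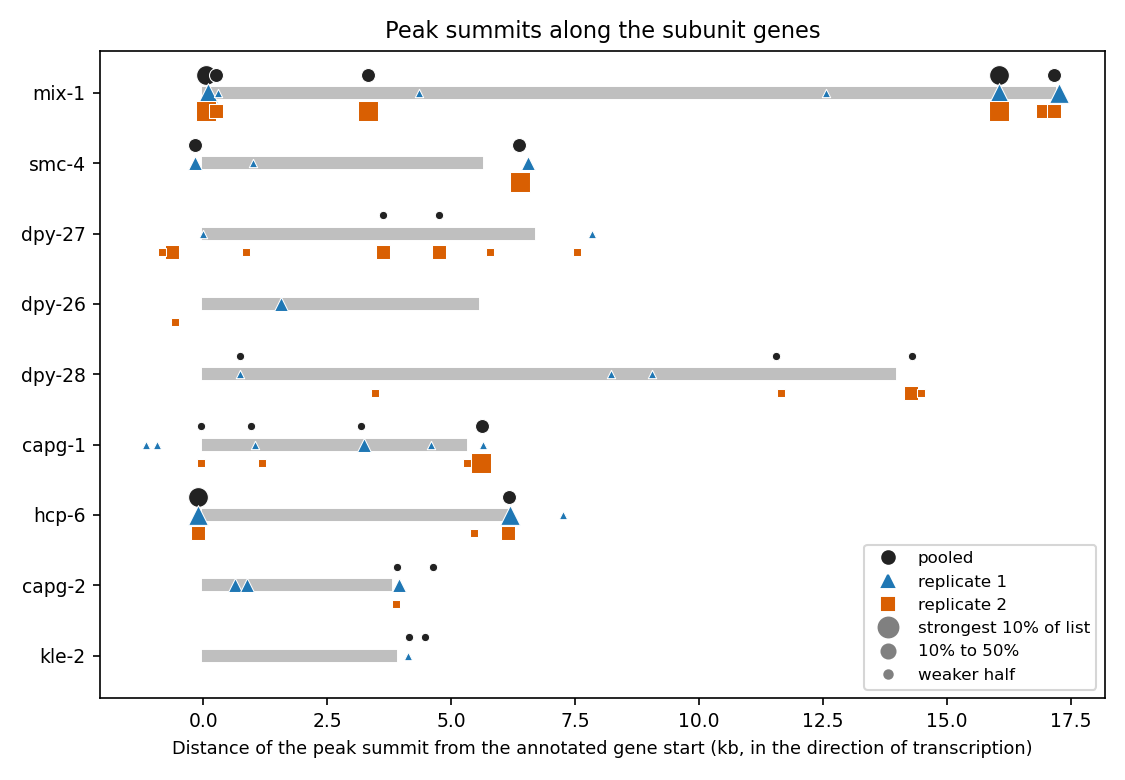
Summits of all peaks along the 9 subunit genes, each gene (grey bar) aligned at its annotated start and drawn in the direction of transcription, with distance in kb; circles are pooled peaks, triangles replicate 1 and squares replicate 2, and size gives the peak's standing in its own list. Marks of all lists stand above each other at both ends of mix-1 and hcp-6 and in intron 13 of mix-1. They also do so past the ends of capg-1 and capg-2, and less closely past the end of smc-4 and within capg-1. At dpy-26 the replicates mark different places.

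The replicates shared a part of these peaks. Of 28 peaks of replicate 1 at the subunit genes, 11 (39.3%) overlapped a replicate 2 peak, against 6304 of all 17532 replicate 1 peaks (36.0%). Of 27 peaks of replicate 2, 13 (48.1%) overlapped a replicate 1 peak. The share over all 14069 replicate 2 peaks was not counted, and the replicate 1 list is the longer. The 48.1% therefore has no background here and cannot be set against the 36.0%. Among the 22 pooled peaks, 10 overlapped a peak in both replicates, 5 in replicate 1 alone, 6 in replicate 2 alone and 1 in neither. Of all nuclear pooled peaks 54.6% overlapped a peak in both. The 10 peaks found in both belonged to mix-1 (4), hcp-6 (2), capg-1 (2), smc-4 (1) and capg-2 (1), and none to dpy-27, dpy-28 or kle-2. Of the 22, 12 ranked below the middle of the pooled list (rank 5009) and 3 were among its 739 strongest.

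Set side by side by complex, the subunit genes had 13 to 14 pooled peaks for each complex, and the complexes share genes. Of the 5 condensin II genes, 5 had a pooled peak, with 13 peaks or 2.79 per 10 kb of window. Of the 5 condensin I genes 4 did, with 14 peaks or 2.43 per 10 kb. Of the 5 genes of the dosage compensation condensin 4 did, with 14 peaks or 2.39 per 10 kb. In both, the gene without a pooled peak was dpy-26. Of all protein-coding genes 43.4% had a pooled peak, and 60.6% of those with windows in the subunit genes' range of widths. mix-1 stands in all 3 complexes and brings 5 of the peaks to each. The genes unique to condensin II, hcp-6, capg-2 and kle-2, had 6 peaks (3.03 per 10 kb), and the 3 genes that condensin I shares with the dosage compensation condensin without mix-1 had 7 (2.27 per 10 kb). None of the 6 summits lay inside its own gene. All were in the flanks, those of capg-2 and kle-2 inside the neighbours bnc-1 and gsto-1. Of the 7, some lay inside the genes and some in the flanks. The windows of hcp-6, capg-2 and kle-2, flanks included, were 8166, 5786 and 5877 bp wide. All 9 genes together had 22 peaks (2.56 per 10 kb), against 1.33 per 10 kb in the windows of all protein-coding genes. For all genes a peak, like the bases under it, was counted once for each window that held it, and widths were not matched. With a handful of genes a complex, the differences between complexes were not tested. None of the 9 genes lies on X.

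The other genes of dosage compensation that were counted were sdc-1, sdc-2 and sdc-3, which recruit the dosage compensation condensin to X, dpy-21, a histone demethylase, dpy-30, whose product also serves in a histone methyltransferase complex, the X-counting and switch genes xol-1, sex-1 and fox-1, and the histone H4 methyltransferase genes set-1 and set-4. Of these 10, 7 had a pooled peak (43.4% of all genes), 9 a replicate 1 peak (60.7%) and 8 a replicate 2 peak (52.9%), with 1.4 pooled peaks per 10 kb. A thresholded peak was found at 0 of the 10, which with a share of 5.08% among all genes is near the background and no result about these genes. Their best pooled peak was at set-4 (signal 74.1, rank 1269), and 5 of the 10 lie on X. Among the genes of the other SMC proteins, him-1 and smc-3 of cohesin and smc-5 and smc-6 of the repair complex, 4 of 4 had a pooled peak (2.08 per 10 kb). Of these, smc-3 had a thresholded one (signal 113.3, rank 466), stronger than the start peaks of mix-1 (98.0) and hcp-6 (95.7) and weaker than the snoRNA peak of mix-1 (254.1).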

How the data were processed

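REC-8-GFP ChIP-seq peak lists of 2 replicates of 1 group were used as deposited. The authors called peaks for each replicate and for both pooled, with a control, and thresholded them on the irreproducible discovery rate, per the file listings deposited with the samples. Aligner and caller were not given in the sources used here. The deposited signal of each peak (the caller's value, not scaled between lists) was ranked within its list. The deposited −log10 q values were not used. Depth per sample is unknown, so no interval could be given. The build is ce11 (WBcel235), and the ce10 lists were not used.

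Genes were placed by Ensembl release 115 and sequences read from RefSeq, with positions counted from 1. Gene ends are the outermost annotated ones, and introns and exons are numbered as in the annotated transcripts. A gene had a peak when a peak interval overlapped it or its 1000 bp flanks. Calls over all 19973 nuclear protein-coding genes give the background, and no statistical test was made. Overlap counting was tested on simulated data. The subunit genes were named in all cases, and other genes of the pathway by count, except those with a thresholded peak or their list's best rank. Neighbouring genes were named where a peak lay nearer to their start, and others (R06F6.12, M106.8, let-630, spd-5, lrp-1, bnc-1, Y39A1B.5, M106.6) after their values were seen. The members and lists were chosen with earlier results of these data known. Alternatives varied the flank, the overlap rule, the list, and peaks near short RNA genes. Counts near gene ends, neighbour arrangements and motif letters were added after seeing the data. Scripts ran under Python 3.11.15 with pandas 2.3.3, numpy 2.4.6 and matplotlib 3.10.9.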

Additional observations from a re-analysis of the deposited data

How the results depend on the processing

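The counts of subunit genes with a peak changed by at most 2 genes when the flank was left out or set to 500 or 2000 bp, and not at all when the summit had to lie in the window. Among the stronger peaks of each list (ranks up to the middle), 4 of the 9 genes had a pooled peak (reported: 8). A peak in each replicate list was found at 4 (8), and a thresholded one at 1 (2), mix-1 by its snoRNA peak. The share of all genes was not counted at this setting, nor without peaks near short RNA genes. These counts therefore have no background to be read against. Read from 1 replicate's list, the gene count was 8 to 9 for any peak and 1 to 2 among the 739 strongest (without replicate 1 mix-1 and smc-4, without replicate 2 mix-1). Without peaks near short RNA genes, 0 genes had a peak among the 739 strongest of each replicate (1). Summits within 500 bp of a gene end were at 6 genes (17.4% of all genes). With 250 bp they were at 3 (10.3%), and among the stronger peaks at 3 (10.7%). Each single replicate list had 5, against 24.8% of all genes in replicate 1 and 20.9% in replicate 2. These settings were chosen after seeing the data. Shared replicate 1 peaks were 7 when summits had to lie within 100 bp (11). Without flanks, the best pooled rank was 6703 at capg-1, 9291 at dpy-28 and 3895 at smc-4, and kle-2 had no peak. The cause of these shifts was not tested, beyond fewer peaks or narrower windows being counted. No paired analysis was possible because there is only 1 group and no test was made. Depth is unknown, which limits any reading of a missing peak.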
